A study of Mus musculus with 12 samples.

Results

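The genes described here are 9 granulocyte genes of mouse fetal liver: Mpo, Elane, Prtn3, Ctsg, S100a8, S100a9, Ngp, Camp and Ltf. They were chosen by name as a set outside the erythroid lineage, and every peak that the authors' deposited peak table assigns to one of them was taken. This gave 90 of 106382 peaks and 9 of 12102 gene names. The study measured Ago-bound RNA by HITS-CLIP, in which RNA crosslinked to Argonaute (Ago) protein is immunoprecipitated and sequenced. The C57BL/6J livers were from embryos lacking the miR-144/451 locus (KO) or from wild-type embryos (WT). The 12 libraries made 4 groups of 3, namely KO with an Ago antibody (libraries 3, 12 and 13), WT with an Ago antibody (libraries 1, 9 and 10), KO with control IgG (libraries 4, 8 and 14) and WT with control IgG (libraries 2, 6 and 11). The labels name fetal liver cells and no sort for granulocytes, and the sources used here give no embryonic age. The labels do not tie libraries to single livers, so the p-values below measure the spread between libraries, which may be technical.

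Granulocytes store antimicrobial proteins in granules that are filled in sequence as the cells mature. Primary granule proteins are made first, in promyelocytes, and secondary granule proteins later, in myelocytes and metamyelocytes. The fetal liver is mainly an erythropoietic organ at mid-gestation and also makes granulocytes. The microRNAs miR-144 and miR-451 are best known for their high levels in erythroid cells. Mpo encodes myeloperoxidase, which makes hypochlorous acid, and Elane, Prtn3 and Ctsg encode the serine proteases neutrophil elastase, proteinase 3 and cathepsin G. These are the primary granule genes. S100a8 and S100a9 encode the subunits of calprotectin, an abundant calcium-binding protein of the neutrophil cytosol. Ngp encodes a cathelin-related protein, Camp the mouse cathelicidin CRAMP, and Ltf the iron-binding lactoferrin, all of secondary granules.

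The microRNAs whose seed matches decide how these peaks are read below are the products of the deleted locus and miR-16-5p, which lies elsewhere. Their mature sequences are from RefSeq (GRCm38.p6), with the seed, bases 2 to 8, in capitals.
miR-451a: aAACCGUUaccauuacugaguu
miR-144-3p: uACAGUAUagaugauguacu
miR-144-5p: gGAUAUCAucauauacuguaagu
miR-16-5p: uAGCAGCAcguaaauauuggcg
The 4 seeds differ from each other. Mature miR-144-5p, miR-144-3p and miR-451a lie on chromosome 11 between 78073010 and 78073207 on the plus strand, and miR-16-5p is made from genes on chromosomes 3 and 14.

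The libraries were checked as follows. Reads in all peaks numbered 147969 to 341061 in KO Ago, 202876 to 452157 in WT Ago, 24622 to 42916 in KO IgG and 25985 to 42399 in WT IgG libraries. No peak overlapped the mature sequences of the deleted locus, so the genotype could not be read there. Of 40 tested peaks with a miR-451a seed match of 7-mer-A1 or longer, 38 were lower in KO Ago than in WT Ago libraries, with a median log2 change of -3.0. Fetal liver markers were present, with peaks for 20 of 29 erythroid and 17 of 18 hepatocyte genes listed. The globin names Hba-a1, Hba-a2, Hbb-bt and Hbb-bs had no peak in the table. Of 39 further granulocyte genes, 34 had peaks, and of 10 lymphoid genes 4 had.

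The 9 genes together took a small part of the Ago reads in every library. Their share of peak reads was 0.142%, 0.223% and 0.174% in KO Ago libraries 3, 12 and 13, and 0.126%, 0.165% and 0.183% in WT Ago libraries 1, 9 and 10. The groups overlapped, with means of 0.180% ± 0.0409 in KO Ago and 0.158% ± 0.0290 in WT Ago (SD, n = 3 each). The 95% Wilson interval of the share was 0.208% to 0.240% in KO Ago library 12 and 0.126% to 0.159% in KO Ago library 3, which do not overlap, whereas those of WT Ago libraries 9 and 10 do. Such intervals, here and below, cover counting error only. In IgG libraries the share was 0.113% ± 0.0263 in KO and 0.132% ± 0.0170 in WT (SD, n = 3 each). In whole fetal liver, the number of granulocytes and the RNA per granulocyte cannot be told apart by such a share.

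Reads per gene ranged widely. Because peaks and transcripts differ in length, genes were ranked by the authors' average coverage per base of the gene. On that scale Mpo had 8.86, rank 24 of the 12102 genes, followed by S100a8 with 6.74 and S100a9 with 5.84. Ltf had 4.35, Camp 1.92, Prtn3 1.33 and Ngp 1.13. The lowest were Ctsg with 0.607, rank 2772, and Elane with 0.468, rank 3531 of the 12102 genes. The median over all peaks was 0.688, but it counts a gene once per peak and is not a median over genes. Mpo and Ltf also had the most peaks, 22 and 19, whereas S100a8, a short gene, had 4.

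Positions of the genes are from RefSeq (GRCm38.p6, the assembly of mm10). S100a8 and S100a9 are neighbours on chromosome 3, at 90669071 to 90670034 and 90692630 to 90695721. Camp, Ngp and Ltf lie on chromosome 9, at 109847377 to 109849456, 110419808 to 110423012 and 111019292 to 111042766. Prtn3 and Elane are neighbours on chromosome 10, at 79879667 to 79883174 and 79886312 to 79888216. Mpo lies on chromosome 11, at 87793784 to 87804412, and Ctsg on chromosome 14, at 56099885 to 56102574.

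The authors gave each peak a feature class, taking a 3′UTR first, then a 5′UTR, then coding sequence where several features overlap. Coding sequence was the class of 53 of 90 peaks (58.9%, against 42.6% of the 84193 peaks with a gene name), 3′UTR of 28 (31.1%, against 35.4%) and 5′UTR of 6 (6.67%, against 2.71%). The class intron was given to 1 peak, in Prtn3 (1.11%, against 14.7%), and downstream to 2, both of Elane. In Ltf, 13 of 19 peaks had the 3′UTR class, and in Mpo 19 of 22 had the coding class. Of the 28 peaks of the 3′UTR class, 7 lay upstream of a coding peak of the same gene, 4 of them in Ltf, so the class does not always name the end of the main mRNA. The classes below are the authors'. The median peak of these genes held 19 Ago reads, against 10 for all peaks.

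The granulocyte peaks were flat. The authors' density score, the coverage of a peak over the average coverage of its gene, had a median of 1.05 over these peaks and 2.72 over all peaks. A score of 5 was exceeded by 1 of 90 peaks (1.11%), against 29.1% of peaks with a gene name. It was the first coding peak of Prtn3, at chromosome 10, 79879710 to 79879742 (mm10, plus strand), with 5.08. In 37 of 90 peaks (41.1%, against 15.6% of peaks with a gene name) the larger of the lowest KO and lowest WT Ago peak heights reached 3. The authors' IgG ratio was under 0.2 in 64 (71.1%, against 77.0%). That Prtn3 peak was the only granulocyte peak in the authors' deposited table of differential peaks, where its log2 fold change of KO over WT was -0.40 with a false discovery rate of 0.56.

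Setting KO against WT within the Ago antibody asked whether Ago-bound RNA of these genes changed without miR-144/451. None of the granulocyte genes passed the test in either direction. Reads of all peaks of a gene were summed and tested by the edgeR quasi-likelihood test over all genes, with Benjamini-Hochberg adjustment and a threshold of 0.05. Of 4441 genes tested, 235 (5.29%) were lower and 29 (0.653%) higher in KO, with a median log2 change of 0.03. Of the 9 granulocyte genes 8 had enough reads to be tested, all but Ctsg, and 0 were lower and 0 higher. None had an unadjusted p under 0.05 in this fit, by DESeq2 or by limma-voom. In edgeR, 1 gene had such a p with library size alone, with RLE scaling and with the reads in all peaks as library size. The same held with only peaks of an IgG ratio under 0.2. The median log2 change of the 8 was 0.18, with 6 positive and 2 negative values. Over the same 8 genes, leaving out KO Ago library 12 gave a median of 0.03 and leaving out KO Ago library 3 gave 0.30. With WT Ago library 1 left out it was 0.05, and with WT Ago library 10 left out 0.27. In the fits lacking KO Ago library 3 or WT Ago library 10, all 8 values were positive.

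Among the primary granule genes, Mpo had the most reads. It had 83, 153 and 61 reads in KO Ago libraries 3, 12 and 13, and 96, 189 and 87 in WT Ago libraries 1, 9 and 10. As RPM, scaled to a library's reads in all peaks, these were 426 ± 19.6 in KO and 392 ± 54.9 in WT (SD, n = 3 each), and the groups overlapped. The log2 change was 0.08 ± 0.18 (SE, 95% interval -0.31 to 0.46, edgeR quasi-likelihood adjusted p = 0.84).

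Elane, which with 65 Ago reads had as few as Ctsg, had the largest log2 change of the 8. Its reads were 11, 18 and 8 in KO Ago libraries and 7, 16 and 5 in WT Ago libraries. As RPM these were 55.3, 52.8 and 54.1 in KO and 24.0, 35.4 and 24.6 in WT. Every KO library stood above every WT library, and the log2 change was 0.84 ± 0.39 (SE, edgeR quasi-likelihood unadjusted p = 0.051, adjusted p = 0.23, n = 3 each). Over the other settings tried, the change was 0.75 to 1.02 and the adjusted p 0.19 to 0.55. Elane and Prtn3 were the 2 of 8 genes whose normalised values in that fit did not overlap between groups, both higher in KO, against 11.6% of all tested genes higher and 15.4% lower without overlap. On the RPM scale the Prtn3 groups did overlap.

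Prtn3 had 22, 43 and 20 reads in KO Ago libraries and 28, 51 and 22 in WT Ago libraries, or 124 ± 12.4 RPM in KO and 106 ± 8.78 RPM in WT (SD, n = 3 each). Its log2 change was 0.17 ± 0.23 (SE, edgeR quasi-likelihood adjusted p = 0.71). Ctsg, not tested because of low counts, had 11, 18 and 6 reads in KO Ago and 11, 13 and 6 in WT Ago libraries. As RPM these were 55.3, 52.8 and 40.5 in KO and 37.7, 28.8 and 29.6 in WT, without overlap. The share of all genes without overlap was not counted on the RPM scale. The RPM ratio of Ctsg, KO over WT, was 1.61 with an exact 95% counting interval of 0.958 to 2.71, and for Elane it was 1.82 (1.08 to 3.09).

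The S100 genes varied more between KO libraries than the means of the 2 genotypes differed. S100a8 had 34, 123 and 40 reads in KO Ago libraries 3, 12 and 13, and 49, 104 and 59 in WT Ago libraries 1, 9 and 10. S100a9 had 50, 146 and 50 in KO and 64, 125 and 65 in WT. For both genes library 12 was the highest in KO and library 3 the lowest in RPM. The log2 changes were 0.20 ± 0.25 for S100a8 and 0.29 ± 0.21 for S100a9 (SE, edgeR quasi-likelihood adjusted p = 0.68 and 0.45, n = 3 each).

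The secondary granule genes did so too. Ltf had 40, 142 and 48 reads in KO Ago libraries and 69, 148 and 74 in WT Ago libraries, and its log2 change was -0.01 ± 0.24 (SE, edgeR quasi-likelihood adjusted p = 0.98). Ngp had 16, 69 and 13 reads in KO and 16, 52 and 28 in WT, with a log2 change of 0.33 ± 0.35 (SE, edgeR quasi-likelihood adjusted p = 0.61). Camp had 15, 49 and 12 reads in KO and 29, 46 and 26 in WT, with a change of -0.10 ± 0.27 (SE, edgeR quasi-likelihood adjusted p = 0.87). All of these groups overlapped. The sign of Ngp turned to -0.24 without KO Ago library 12.

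**Figure D1:**
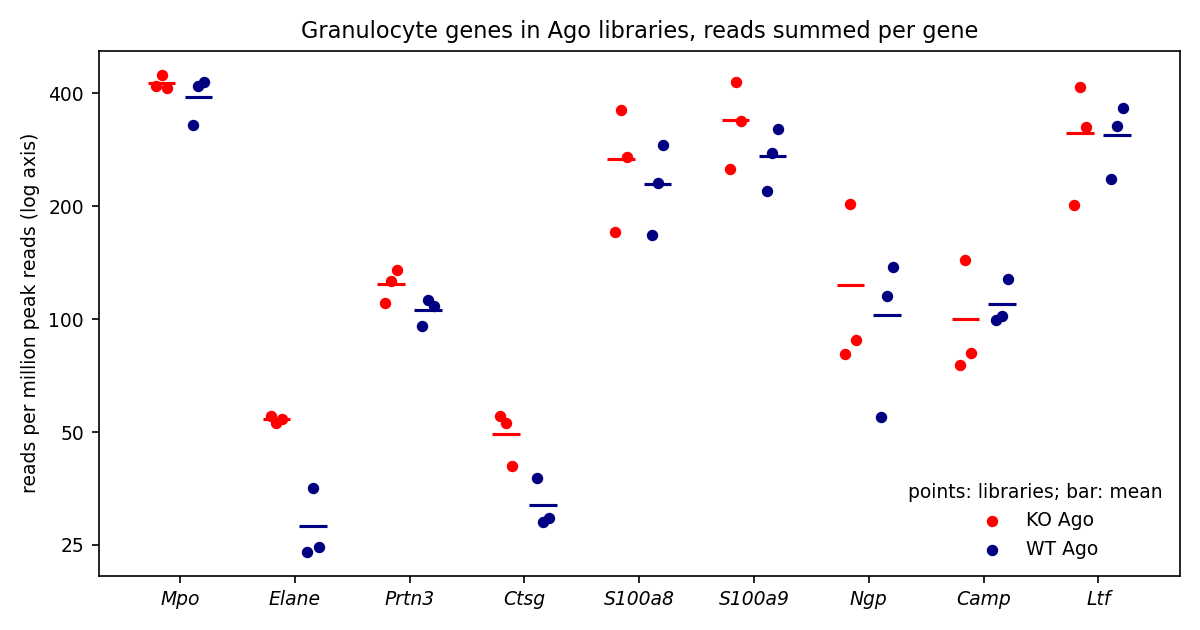
RPM of each granulocyte gene in the 3 KO Ago libraries (red) and the 3 WT Ago libraries (dark blue), on a log axis, with the group mean as a bar. Elane and Ctsg are low, with KO above WT in every library (Elane 52.8 to 55.3 against 24.0 to 35.4), and the other genes overlap between groups.

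The spread between libraries was also taken by granule class. Summed over Mpo, Elane, Prtn3 and Ctsg, KO Ago libraries 3, 12 and 13 had 639, 680 and 642 RPM, and WT Ago libraries 1, 9 and 10 had 486, 595 and 591 RPM. The groups did not overlap, with means of 654 ± 23.0 in KO and 558 ± 61.8 in WT (SD, n = 3 each). How often other gene sums do not overlap in RPM was not counted, and the median RPM ratio over all peaks was 1.10. The S100 genes had 423, 789 and 608 RPM in KO and 387, 506 and 611 RPM in WT. The secondary granule genes had 357, 762 and 493 RPM in KO and 390, 544 and 631 RPM in WT. Both of these sums overlapped between genotypes. Since the classes were chosen with results known, their sums are given with no test.

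In KO Ago the coefficient of variation between libraries was 4.61% for Mpo, 2.36% for Elane, 9.99% for Prtn3 and 15.9% for Ctsg. Each was below the value that counting error alone gives, which was 10.1% for Mpo and 28.5% for Elane. It was 35.5% for S100a8, 26.0% for S100a9, 34.4% for Ltf, 37.8% for Camp and 55.3% for Ngp. These were all above counting error, which was 12.3% for S100a8, 11.4% for Ltf and 17.5% for Ngp. In WT Ago the primary granule genes had 14.0% (Mpo), 22.9% (Elane), 8.30% (Prtn3) and 15.4% (Ctsg), of which that of Mpo was above its counting error of 8.98%. The S100 genes had 26.8% (S100a8) and 18.7% (S100a9), and the secondary granule genes 41.9% (Ngp), 14.6% (Camp) and 21.3% (Ltf), of which that of Camp was below its counting error. Single genes of the 3 classes thus overlapped in WT, and no test of a difference in spread was run.

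Other granulocyte genes had the same order of libraries as the S100 and secondary granule genes. The 34 with peaks, among them Lcn2 and Hp, took 0.0941%, 0.186% and 0.157% of the reads in KO Ago libraries 3, 12 and 13 and 0.0884%, 0.141% and 0.164% in WT Ago libraries 1, 9 and 10. Library 12 was again the highest in KO and library 10 in WT. Hepatocyte genes had another order, with 1.25%, 1.40% and 2.45% in KO and 0.672%, 0.791% and 2.00% in WT. Erythroid genes took 1.63%, 1.86% and 1.54% in KO Ago and 2.13%, 2.39% and 1.98% in WT Ago libraries, without overlap. The part of these cell type shares in the granulocyte values was not tested. With erythroid and hepatocyte list genes left out of the total, the share of the 9 genes was 0.186% ± 0.0425 in KO Ago and 0.164% ± 0.0310 in WT Ago (SD, n = 3 each).

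**Figure D2:**
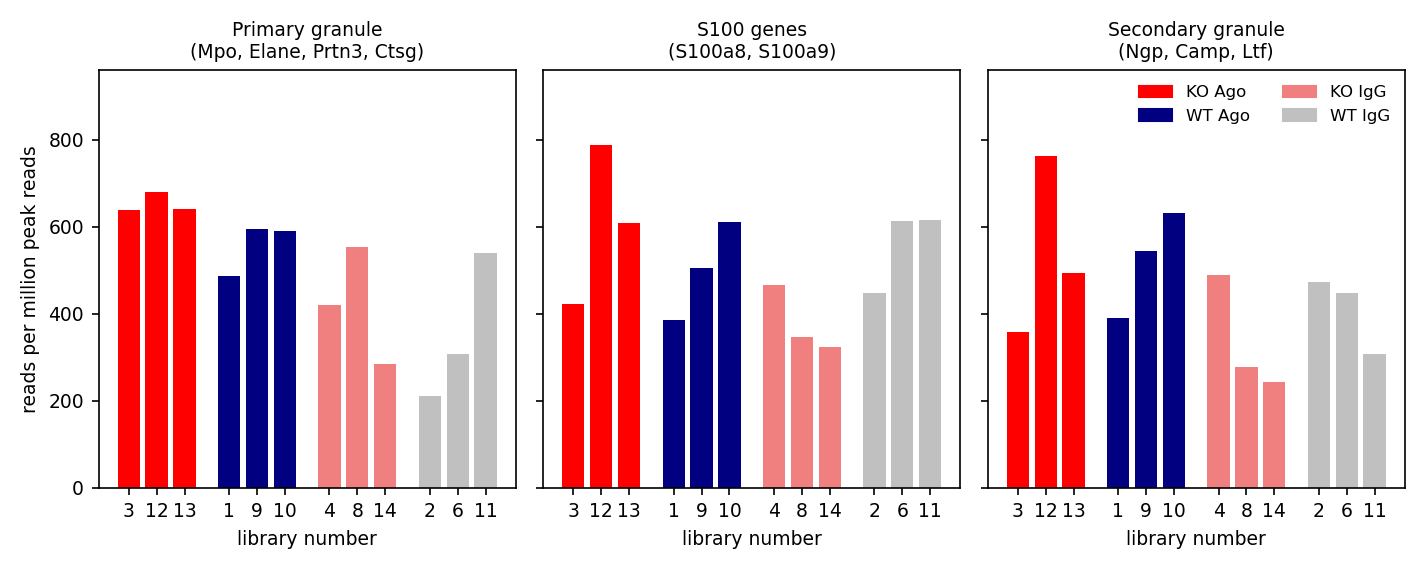
RPM summed over the primary granule, S100 and secondary granule genes, 1 bar per library, with KO left of WT for the Ago and then for the IgG libraries. Primary granule genes are level across KO Ago libraries (639 to 680), whereas S100 genes run from 423 to 789 and secondary granule genes from 357 to 762.

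Set beside lists for other cell types, the granulocyte genes lay close to the level of all genes. Of the 39 further granulocyte genes 11 were tested, 0 were lower and 0 higher, and their median log2 change was 0.15 with 9 positive values. Fcnb, a ficolin gene, had -0.30 ± 0.47 (SE, edgeR quasi-likelihood adjusted p = 0.74). The genes with the smallest p were Cebpa, a transcription factor of granulocyte progenitors, with 0.53 ± 0.40, and Lcn2, the siderophore-binding lipocalin, with 0.44 ± 0.33 (SE, edgeR quasi-likelihood adjusted p = 0.46 each).

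Of 20 tested erythroid genes, 2 were lower in KO and 0 higher, and 17 had a negative change, with a median of -0.36. Tfrc, the transferrin receptor, fell by 1.07 on the log2 scale (edgeR quasi-likelihood adjusted p = 0.0015), and Epor, the erythropoietin receptor, fell by 1.16 (adjusted p = 0.0050). Of 17 tested hepatocyte genes 0 passed in either direction, with 16 positive and a median of 0.57. Few genes of other blood lineages could be tested. The macrophage genes Maf, C1qc and Vcam1 had a median of 0.63, the progenitor genes Hlf and Kit had 0.46 and 0.21, the eosinophil gene Prg2 had 0.18 and the platelet gene Ppbp had 0.39, and none passed.

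**Figure D3:**
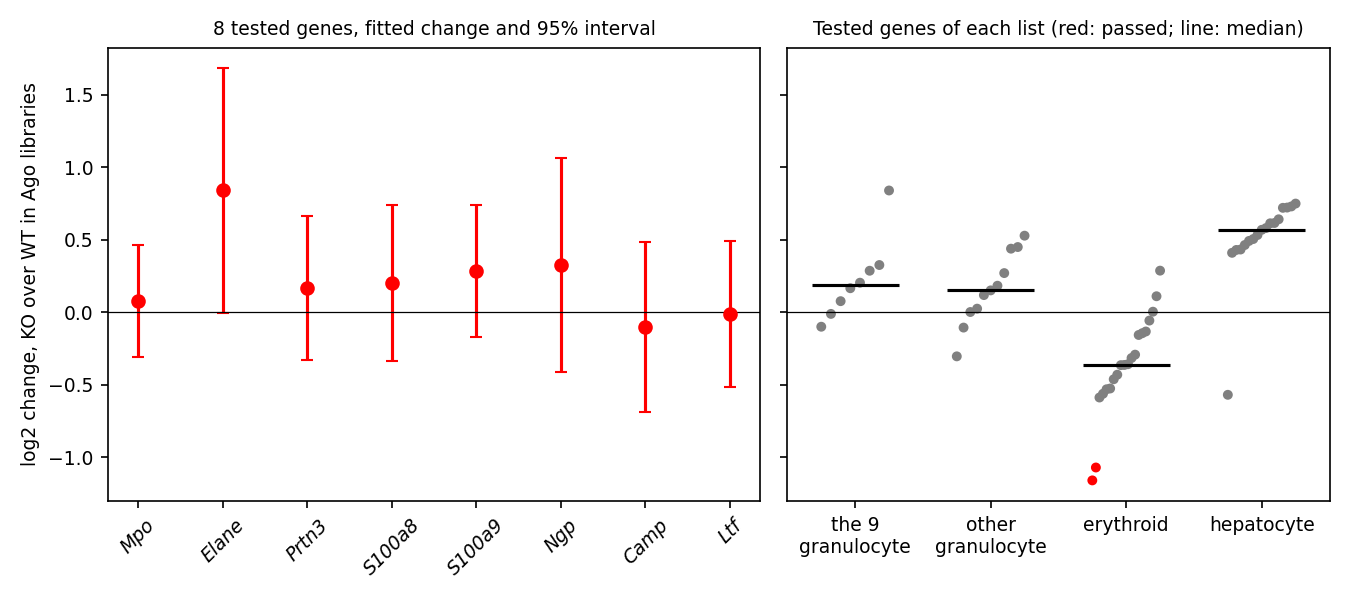
Left, fitted log2 change of KO over WT in Ago libraries with its 95% interval for the 8 tested granulocyte genes, all of which include 0. Right, the same change for the tested genes of each list, with the median as a line (0.18 for the 8 tested granulocyte genes, 0.15 for other granulocyte, -0.36 for erythroid and 0.57 for hepatocyte genes) and the 2 genes that passed in red.

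Tested peak by peak, the granulocyte genes gave the same counts. The edgeR quasi-likelihood test was run on 2425 peaks and called 428 (17.6%) lower and 34 (1.40%) higher in KO. The filter left 12 of the 90 granulocyte peaks, 3 of Mpo, 4 of S100a8, 3 of S100a9 and 2 of Ltf, and 0 were lower and 0 higher. None had an unadjusted p under 0.05 in this fit, by DESeq2 or by limma-voom. Without the filter 2 of the 90 had such a p in edgeR, and 0 were called. The log2 changes of the 12 ran from -0.24 to 0.40, with 6 below and 6 above 0, around a median of -0.01. The median of all tested peaks was 0.09, and it was 0.25 with library size alone and 0.30 with the reads in all peaks as library size, where 11 of the 12 were positive.

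The tallest peaks showed the same picture. The coding peak of S100a9 at chromosome 3, 90695201 to 90695228 (minus strand), the deepest of all 90, had 16, 48 and 21 reads in KO Ago libraries and 25, 45 and 24 in WT Ago libraries. The 3′UTR peak of Mpo at chromosome 11, 87804364 to 87804398 (plus strand), had 15, 32 and 15 in KO and 23, 33 and 19 in WT. Their log2 changes were 0.07 ± 0.32 and -0.06 ± 0.30 (SE, edgeR quasi-likelihood adjusted p = 0.92 and 0.93). The 5′UTR peak of Ltf at chromosome 9, 111019338 to 111019368, had the most negative of the 12 changes, -0.24 ± 0.35, with 11, 22 and 10 reads in KO and 17, 22 and 19 in WT (SE, edgeR quasi-likelihood adjusted p = 0.72). A peak of the 3′UTR class of Ltf at 111035793 to 111035814 had the most positive, 0.40 ± 0.41, with summed reads of 45 in KO and 41 in WT (SE, edgeR quasi-likelihood adjusted p = 0.61).

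The 78 peaks below the filter held 6 to 71 Ago reads each and can be described only by summed reads. Over all 90 peaks the RPM ratio of summed reads, KO over WT, was above 1 in 65 and below 1 in 25, with a median of 1.23, against 1.10 over all peaks. The exact 95% counting interval lay above 1 for 2 of them. These were a coding peak of S100a8 at chromosome 3, 90669875 to 90669921, with 67 reads in KO and 63 in WT and a ratio of 1.46 (1.02 to 2.10), and the first 3′UTR peak of S100a9, at 90692664 to 90692688, with 55 reads in KO and 49 in WT and a ratio of 1.55 (1.03 to 2.32). It lay below 1 for a coding peak of Mpo at chromosome 11, 87803398 to 87803415, with 0 reads in KO and 7 in WT. These intervals leave out the spread between libraries, and both S100 peaks were among the 12 that the fit did not call. The share of all peaks with a ratio above 1, or with an interval that leaves out 1, was not counted. The counts for the 90 peaks are thus a description only. The peaks with most reads in the other genes were coding peaks of Prtn3, with 22 reads in KO and 24 in WT, of Camp with 18 in KO and 27 in WT, of Ngp with 14 in KO and 15 in WT, and of Elane with 10 in each.

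Seed matches of 6-mer or longer of the deleted microRNAs were rare at these peaks, as they were over all peaks with a gene name. The deposited seed codes grade how well a peak matches a microRNA, and the weakest grades allow a mismatch or an offset. Counting every grade, 32 of 90 peaks had a code for at least 1 microRNA of the locus (35.6%, against 40.9% of peaks with a gene name). A 6-mer or longer match was present for miR-144-3p at 0 of 90 peaks, against 3.42% of peaks with a gene name. For miR-451a it was present at 1 (1.11%, against 1.20%) and for miR-144-5p at 1 (1.11%, against 0.673%), both in Ctsg. Summed over the 32 coded peaks, KO Ago libraries had 1001 ± 230 RPM and WT Ago libraries 881 ± 171 RPM, and over the 58 peaks without a code 797 ± 180 RPM in KO and 700 ± 126 RPM in WT (SD, n = 3 each). The ratios of KO over WT were 1.22 (1.10 to 1.35) and 1.19 (1.06 to 1.33), with exact 95% counting intervals that overlapped.

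The exception by its seed code was the 5′UTR peak of Ctsg, at chromosome 14, 56102407 to 56102451 (minus strand), which was coded as a 7-mer-m8 match of miR-451a. It had 3, 7 and 4 reads in KO Ago libraries 3, 12 and 13, and 4, 7 and 3 in WT Ago libraries 1, 9 and 10, and no read in the 6 IgG libraries. Each group had 14 reads in sum, with means of 20.9 RPM in KO and 14.7 RPM in WT. The RPM ratio of summed reads, KO over WT, was 1.38 with an exact 95% counting interval of 0.608 to 3.12. The peak held 43.1% of the Ago reads of Ctsg.

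Among peaks with a miR-451a match and at least as many Ago reads, most others were lower in KO. Of 544 peaks with a 7-mer-A1 or longer match, 108 had that many reads, and the rest were not compared. Of 107 others with a 7-mer-A1 or longer match and at least 28 Ago reads, as many as this peak, 105 had a ratio of KO over WT below 1 and 1 had a ratio at or above that of Ctsg. Their median ratio was 0.106. Of the 66 with a 7-mer-m8 or 8-mer match, 65 were below 1 and 0 at or above the Ctsg ratio, and all 3 others in 5′UTRs were below 1. The minimum of 28 reads was taken after the Ctsg values were seen, and the peak itself had too few reads for the fit. The minimum adds KO and WT reads, so peaks low in KO reached it mainly through their WT reads. The coding peak of Ctsg with a 7-mer-A1 match of miR-144-5p, at 56099975 to 56100022, had 5 reads in KO and 2 in WT.

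MiR-16-5p, which the deletion leaves in place, had a 7-mer-m8 match at 3 of 90 granulocyte peaks (3.33%, against 4.44% of peaks with a gene name at 7-mer-A1 or longer). They lay in the coding sequence of Prtn3, with 22 reads in KO and 24 in WT, in the coding sequence of Camp at chromosome 9, 109849353 to 109849384, with 18 in KO and 27 in WT, and in the 3′UTR class of Ltf at 111038952 to 111038985, with 18 in KO and 18 in WT. The Prtn3 and Camp peaks were also the ones with most reads in their genes.

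**Figure D4:**
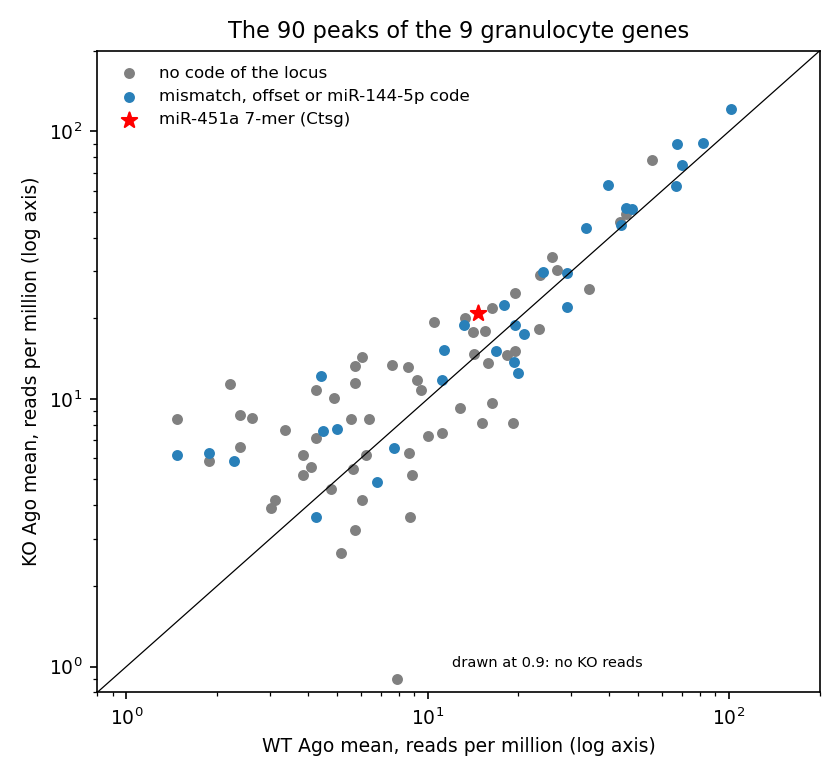
Mean RPM of each of the 90 granulocyte peaks in KO Ago (vertical) against WT Ago (horizontal) libraries, both on log axes, with the line of equality, and with the Mpo peak that has 0 KO reads drawn at the lower edge. The Ctsg peak with the miR-451a match (star) lies just above the line, among the other peaks.

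The comparison of Ago with IgG libraries asked how the share of these genes in the peak reads differs between the antibodies. RPM removes the larger yield of the Ago libraries, so a ratio near 1 does not mean as many reads in IgG. By RPM of summed reads the primary granule proteases Prtn3 and Ctsg had the highest ratios. The counting intervals of S100a8, S100a9, Ngp, Camp and Elane included 1. Prtn3 had 186 reads in the 6 Ago libraries and 4 in the 6 IgG libraries, 3 of these in KO and 1 in WT. Its RPM was 5.77 times that in IgG (exact 95% counting interval 2.22 to 21.4). Ctsg had 65 Ago reads and 1 IgG read, in KO library 14, for a ratio of 8.06 (1.40 to 323). In WT, Ctsg had 0 IgG reads, so no ratio could be formed. Taking 3 reads over the IgG group as a floor gave 1.12. The exact 95% counting interval in WT began at 0.858, below 1.

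The other genes were nearer to 1 on this scale. Fitted with the reads in all peaks as library size, all tested genes had a median log2 change of 0.91 in KO and 0.85 in WT. The ratio of Ago over IgG was 1.75 for Ltf (1.25 to 2.51) and 1.36 for Mpo (1.05 to 1.80), whose counting intervals lay above 1. It was 1.37 for Camp (0.822 to 2.45), 1.27 for S100a8 (0.915 to 1.80), 1.09 for S100a9 (0.826 to 1.46), 0.891 for Ngp (0.594 to 1.39) and 0.806 for Elane (0.412 to 1.76). For Elane, 6 of its 10 IgG reads fell in 1 downstream peak, at chromosome 10, 79888721 to 79888745, which held 12 of its 65 Ago reads. All 9 genes together had a ratio of 1.37 (1.20 to 1.56). Peaks were called on the pooled Ago libraries, so places with reads in IgG alone are not listed.

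Fitted per gene, no granulocyte gene passed. In KO, 6 of the 9 were tested and 0 were lower and 0 higher, against 10.4% lower and 2.16% higher of 1988 genes, and none had an unadjusted p under 0.05. In WT, 7 were tested and 0 were lower and 0 higher, against 13.0% lower and 2.00% higher of 2603 genes, with 3 at an unadjusted p under 0.05. These were Prtn3, with a log2 change of 2.70 ± 1.17 (SE, edgeR quasi-likelihood adjusted p = 0.12), S100a9 with -0.90 ± 0.37 (adjusted p = 0.10) and S100a8 with -0.88 ± 0.40 (adjusted p = 0.14). Prtn3 in KO had 1.28 ± 0.79 (SE, edgeR quasi-likelihood adjusted p = 0.34). DESeq2 and limma-voom called no granulocyte gene in either genotype, and each had 0 in KO and 1 in WT at an unadjusted p under 0.05. In KO, edgeR gave 3 such genes with the reads in all peaks as library size and 2 without a filter.

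The Prtn3 call depended on the scaling. With the reads in all peaks as library size, a setting added after the data were seen, Prtn3 was higher in Ago by 1.95 on the log2 scale in KO (edgeR quasi-likelihood adjusted p = 0.038) and by 3.39 in WT (adjusted p = 0.010). It also passed in WT without a filter on low counts (adjusted p = 0.031) and without WT IgG library 11, which held the only WT IgG read of Prtn3 (adjusted p = 0.035). With the reads in all peaks as library size the median change of all tested genes was 0.91 in KO and 0.85 in WT, against 0.22 and 0.13 with TMM scaling, so the gene changes are relative to those levels.

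**Figure D5:**
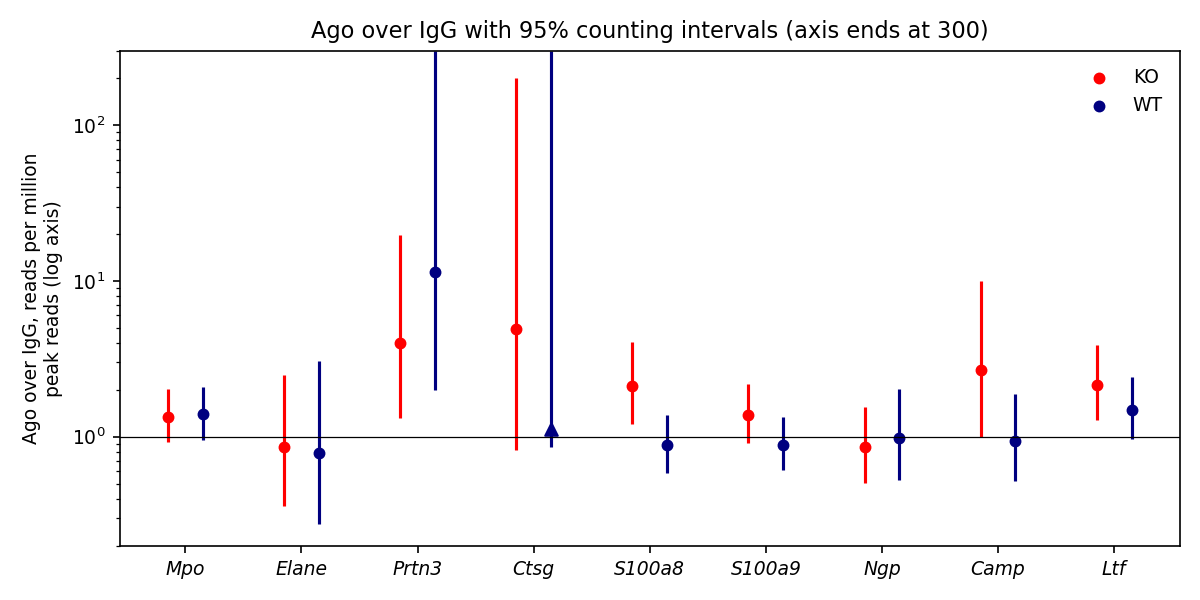
Ratio of Ago over IgG in RPM for each granulocyte gene, in KO (red) and WT (dark blue), with exact 95% counting intervals. The log axis cuts off the longest intervals. A triangle marks Ctsg in WT, which had 0 IgG reads, with 3 reads taken as the floor. Prtn3 lies above 1 in both genotypes, whereas Ngp and Elane lie at or below 1.

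Few single peaks had enough reads in IgG for a test. In KO, 1 of the 90 was tested and was higher in Ago, against 40.0% of 645 tested peaks higher and 23.3% lower. It was the deepest coding peak of S100a9, with 16, 48 and 21 reads in KO Ago and 9, 3 and 1 in KO IgG libraries, and a log2 change of 2.65 ± 0.62 (SE, edgeR quasi-likelihood adjusted p = 0.0043). In WT, 2 were tested and both were higher, against 35.9% of 894 tested peaks higher and 37.9% lower. They were the same S100a9 peak, with 25, 45 and 24 reads in WT Ago and 4, 4 and 3 in WT IgG libraries and a change of 2.20 ± 0.49 (SE, edgeR quasi-likelihood adjusted p = 0.0015), and the coding peak of S100a8 at chromosome 3, 90669632 to 90669670, with 17, 28 and 18 reads in WT Ago and 4, 5 and 3 in WT IgG libraries and a change of 1.52 ± 0.45 (adjusted p = 0.0075).

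The calls of these peaks were not stable to leaving out 1 IgG library. Each such fit also tested more peaks, 1838 to 1930 in KO and 2602 to 3024 in WT. Their median log2 change was 0.36 to 0.59 in KO and 0.63 to 1.06 in WT, against -0.17 and -0.14 in the main fits. The part of the single library and that of the tested set cannot be told apart. The S100a9 peak in KO was no longer called without KO IgG library 8 (log2 change 1.19, edgeR quasi-likelihood adjusted p = 0.16) or 14 (0.95, adjusted p = 0.20). In WT it was not called without WT IgG library 6 (1.56, adjusted p = 0.070) or 11 (1.41, adjusted p = 0.065). The S100a8 peak was not called without WT IgG library 2, 6 or 11, with changes of 0.88, 1.00 and 0.69. Without a filter on low counts none of the 3 calls remained, with an edgeR quasi-likelihood adjusted p of 0.15 for S100a9 in KO, and 0.065 for S100a9 and 0.19 for S100a8 in WT.

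The calls also ended, and the signs turned, with the reads in all peaks as library size. The S100a9 peak then had -0.11 in KO and -0.05 in WT, and the S100a8 peak -0.72 (edgeR quasi-likelihood adjusted p = 0.87, 0.95 and 0.29). The median over all tested peaks was then -2.86 in KO and -2.38 in WT, against -0.17 and -0.14 with TMM scaling. Changes of single peaks are therefore relative to a set in which only peaks with many IgG reads could be tested.

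The genotypes were also compared in the IgG libraries, where only 251 genes were tested, and 0 (0.00%) were lower and 0 higher. Mpo had 13, 14 and 4 reads in KO IgG libraries 4, 8 and 14 and 7, 12 and 11 in WT IgG libraries 2, 6 and 11, with a log2 change of 0.15 ± 0.51 (SE, edgeR quasi-likelihood adjusted p = 0.98). S100a9 had 14, 8 and 3 reads in KO and 7, 14 and 11 in WT, with -0.29 ± 0.55 (SE, edgeR quasi-likelihood adjusted p = 0.98). Neither had an unadjusted p under 0.05, by edgeR, DESeq2 or limma-voom.

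The interaction of genotype and antibody, which asks whether the KO change in Ago differs from that in IgG, was tested for 2654 genes, of which 0 (0.00%) passed in either direction. Of the 7 granulocyte genes tested none had an unadjusted p under 0.05, by edgeR, DESeq2 or limma-voom. With WT Ago library 10, KO Ago library 3 or KO IgG library 14 left out, 1 gene had such a p in edgeR. In the main fit the smallest p was that of S100a8, with a difference of log2 changes of 1.12 ± 0.62 (SE, edgeR quasi-likelihood adjusted p = 0.91). Its ratio of Ago over IgG was 2.12 in KO (1.21 to 4.06) and 0.882 in WT (0.589 to 1.37) in RPM, with exact 95% counting intervals.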

How the data were processed

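Ago and IgG HITS-CLIP libraries of KO and WT fetal liver were analysed from the authors' deposited peak table, with coordinates in mm10. The submitters' processing notes name STAR, cutadapt, limma and bedtools, without versions or roles. Per the deposited column description, read counts are raw reads overlapping a peak by at least 16 bases. The peak height and gene coverage columns are a signal deposited by the authors, with no scaling for depth stated. The IgG ratio is the authors' summed IgG over Ago peak height, and the seed codes and density are a score given by the authors. The log2 fold changes and p-values of the authors' deposited table were copied, not recomputed. The sources used here do not say how reads matching several places were treated, so reads of related genes may be split between them.

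Counts per peak, and summed per gene name, were tested with edgeR 4.0.16 (R 4.3.3) over the whole table, using TMM scaling, filterByExpr with a minimum count of 10 and minimum total of 15, and Benjamini-Hochberg adjustment. DESeq2 1.42.0 and limma-voom (limma 3.58.1) were alternatives, as were other scalings, no filter, the reads in all peaks as library size (added after the data were seen), leaving out each library, all 12 libraries in one fit and peaks with an IgG ratio under 0.2. RPM values divide by the reads in all peaks. Ratios of summed reads carry exact binomial 95% intervals. On simulated counts the test of KO against WT in Ago libraries per gene (4441 genes) recovered 43.8% of 2-fold and 85.6% of 4-fold changes, with 9 false calls. Per peak (2425 peaks) it recovered 11.8% and 70.1%, with 4 false calls. The simulation used a common dispersion and changed randomly drawn genes or peaks. These rates are therefore averages over all depths and are not those of the granulocyte genes. Libraries of a group differed by more than sampling noise (chi-square over degrees of freedom 1.66 to 5.07), so none was treated as a duplicate.

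The genes and the comparison lists were chosen with earlier results of these data known. All 9 genes are named. Named peaks are those tested in any comparison per peak and the deepest of each gene, and in other lists up to 5 genes with the smallest p. Peaks named for a counting interval, a seed code or their IgG reads were chosen after their values were seen.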

Additional observations from a re-analysis of the deposited data

How the results depend on the processing

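For KO against WT in Ago libraries no granulocyte gene or peak was called under any setting run, with adjusted p from 0.17 to 1.00 per gene and 0.29 to 1.00 per peak. The shares of peak reads in the 9 genes were also taken without erythroid and hepatocyte list genes in the total, and from summed peak heights. Group means then moved by less than 1 SD, to 0.186% and 0.172% in KO Ago and 0.164% and 0.151% in WT Ago. Leaving out a library gave means of 0.158% to 0.199% in KO Ago and 0.145% to 0.174% in WT Ago. With so few libraries per group such means cannot move by 1 SD, so these settings were no test of stability. No paired analysis was possible because the groups share no replicate numbers. Depth limits these results: the 65 Ago reads of Ctsg and of Elane allow only large changes to be seen.

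The count of granulocyte peaks higher in Ago than in IgG was 1 in KO, 7 without a filter, 0 with the reads in all peaks as library size and 0 to 5 when a library was left out. In WT it was 2, 1 with library size alone, 10 without a filter, 0 with the reads in all peaks and 0 to 4 when a library was left out. With an Ago library left out, the filter kept only 308 to 316 peaks in KO and 240 to 246 in WT. No granulocyte peak was among them. The count of genes higher in Ago was 0, and 1 (Prtn3) with the reads in all peaks in KO and in WT, 1 in WT without a filter, and 0 to 1 when a WT library was left out.

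Signs turned as follows, and except for the 3 called peaks these changes were below the threshold in the main setting. For KO over WT in Ago per peak (log2), the reads in all peaks as library size gave 0.0084 for Mpo at 87794535, 0.17 for Mpo at 87803561, 0.16 for Mpo at 87804364, 0.13 for S100a8 at 90669518 and 0.093 for S100a9 at 90692794, and library size alone gave 0.13, 0.11, 0.071 and 0.038 for the last 4. For S100a8 at 90669632, DESeq2 gave -0.023, limma-voom -0.068, no filter -0.041 and all 12 libraries in one fit -0.044. For S100a8 at 90669974, DESeq2 gave -0.022 and no filter -0.053. For S100a9 at 90695201, no filter gave -0.016 and all 12 libraries -0.040. With a library left out, the ranges were -0.65 to 0.083, -0.25 to 0.22 and -0.19 to 0.081 for the Mpo peaks, -0.38 to 0.23, -0.55 to 0.28, -0.18 to 0.54 and -0.41 to 0.39 for the S100a8 peaks in order of position, and -0.23 to 0.050 and -0.16 to 0.31 for the S100a9 peaks.

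Per gene, leaving out a library gave -0.016 to 0.13 for Mpo, -0.042 to 0.41 for S100a8, -0.24 to 0.53 for Ngp, -0.45 to 0.041 for Camp and -0.23 to 0.19 for Ltf. Camp had 0.065 with peaks of low IgG ratio only. Ltf had 0.044 with library size alone, 0.046 with the reads in all peaks, 0.0012 with all 12 libraries and 0.047 with peaks of low IgG ratio.

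For Ago over IgG per gene in KO, library size alone, the reads in all peaks and no filter gave 0.0040, 0.41 and 0.31 for Mpo and 0.0071, 0.43 and 0.32 for S100a9, with -0.50 to 0.27 and -0.49 to 0.12 when a library was left out. In WT the reads in all peaks and no filter gave 0.45 and 0.49 for Mpo and 0.59 and 0.62 for Ltf, library size alone gave 0.10 for Ltf, and no filter 0.015 for Ngp, with -0.36 to 0.18 for Mpo, -0.84 to 0.023 for Ngp and -0.16 to 0.50 for Ltf when a library was left out. With the reads in all peaks the called peaks had -0.11 in KO and -0.047 in WT (S100a9) and -0.72 in WT (S100a8). In IgG libraries Mpo had -0.013 with library size alone and -0.29 to 0.43 with a library left out, and S100a9 had 0.039 by limma-voom. In the interaction Mpo had 0.0065 with library size alone, and leaving out a library gave -0.45 to 0.33 for Mpo and -0.89 to 0.22 for Ngp. The cause was not tested.

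Counts over the whole table moved more. For KO against WT in Ago per gene, 102 to 319 genes were lower and 5 to 87 higher over the settings (DESeq2 117 and 6), and per peak 58 to 2704 lower and 3 to 83 higher. For Ago against IgG per gene, 79 to 287 were lower and 4 to 584 higher in KO, and 64 to 372 lower and 3 to 675 higher in WT. Per peak, 8 to 464 were lower and 28 to 1865 higher in KO, and 29 to 555 lower and 47 to 4303 higher in WT.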

Other observations

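The profile of the summed granulocyte genes over the 12 libraries was compared with the profiles of single genes. The 1924 genes compared were those with at least 200 reads and, whatever their reads, the 9 granulocyte genes. This cut left out most further granulocyte genes, such as Anxa1, Hp and Lcn2, so they could not be among the nearest. The 5 nearest genes outside the set, by Euclidean distance between centred log2 CPM profiles, were Acap2 (0.734), Scd2 (0.801), Cbx5 (0.825), Rhag (0.855) and Eif4g2 (0.857). Rhag encodes an erythroid membrane protein and Scd2 a fatty acid desaturase. Of the granulocyte genes themselves, which are part of that sum, S100a9 ranked 9 and Mpo 16, while Ctsg ranked 1484 and Prtn3 1538. The distances are a description and share the libraries and their depths.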
